A study of Mus musculus with 69 samples.

Results

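The 49 genes described here encode the secreted and membrane side of the Wnt pathway together with its best known feedback target. They comprise 19 Wnt ligands, 10 Frizzled receptors, the 4 co-receptors Lrp5, Lrp6, Ror1 and Ror2, 4 R-spondins, the 3 R-spondin receptors Lgr4, Lgr5 and Lgr6, 8 secreted antagonists of the Sfrp, Dkk and Wif1 families, and Axin2. Members were chosen by gene symbol alone, and all 49 were found among the 55964 gene IDs of the expression tables. The antagonists Sfrp4 and Frzb fell outside this choice of symbols and are counted with the rest of the pathway.

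The study asked what happens to female reproductive tissues when the transcription factor gene Zeb1 escapes its repression by the miR-200 microRNAs. RNA from whole pituitary, hypothalamus and ovary was sequenced from female mice backcrossed to C57BL/6J, all in proestrus, in 69 libraries that form 18 groups. The 3 genotypes were wild type (WT), Zeb1_200H, in which 1 Zeb1 allele carries point mutations in all predicted miR-200a/b sites of its 3′ UTR, and Zeb1_200M, in which both alleles carry them. A young cohort of 8 to 12 weeks comprised virgin females, and an older cohort of 28 to 36 weeks comprised females that had completed a breeding trial. No agent was given to any group. The change was made in the germline and is therefore present in every cell of the animal. The knock-in lines descend from a pair of targeted embryonic stem cell clones, and the labels do not tie a library to a clone. Each group had 4 libraries, except young WT pituitary, older 200M pituitary and older 200M hypothalamus with 3 each. A young WT pituitary library is called replicate u, because its column is numbered 3 while the sample titles of that group are numbered 1, 2 and 4. Libraries were described as biological replicates, and the labels do not say which libraries of different tissues came from 1 mouse. The young cohort was sequenced from rRNA-depleted, stranded libraries and the older from poly(A)-selected, unstranded ones, so age, breeding history and library chemistry cannot be told apart between cohorts. Levels were therefore compared between genotypes within a tissue and cohort.

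Libraries held between 3321845 and 14655095 counts assigned to genes. Zeb1 itself averaged 95.6 CPM (counts scaled to a common library total) in young WT pituitary and 138 in 200M, a log2 difference of 0.52 ± 0.061 (SE; adjusted p = 2.39e-05 by the edgeR quasi-likelihood test). In older pituitary the log2 difference was 0.55 (adjusted p = 0.000833), and no Zeb1 difference passed in ovary or hypothalamus. The mutated sites themselves are not read by gene counts. Tissue labels were checked against defining markers: the summed level of 6 hormone and lineage genes of non-gonadotrope pituitary endocrine cells was 65614 to 328862 CPM in pituitary, 0.152 to 39.3 in ovary and 3.62 to 153 in hypothalamus. Summed neuron markers in hypothalamus were 894 to 1648 CPM, and summed granulosa markers in ovary were 577 to 4495 CPM.

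Wnt proteins are lipid-modified glycoproteins that bind Frizzled receptors on nearby cells. With Lrp5 or Lrp6 as co-receptor this stabilises β-catenin and switches on target genes such as Axin2, whose product feeds back to restrain the pathway, whereas Ror1 and Ror2 serve ligands such as Wnt5a in β-catenin-independent signalling. R-spondins acting through Lgr4, Lgr5 or Lgr6 keep Frizzled receptors on the membrane by removing the ligases that degrade them, and Sfrp, Wif1 and most Dkk proteins hold the pathway back outside the cell. In the ovary, Wnt4 and Rspo1 are known for directing female gonad development, and in the embryo Wnt signals pattern the pituitary primordium. ZEB1 is a zinc finger repressor that binds E-box sequences of the form CAGGTG and CAGGTA.

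The miR-200 family, whose sites were removed from Zeb1, falls into 2 seed groups that differ at 1 seed base. Their mature sequences (RefSeq, GRCm38.p6) are shown with the seed, bases 2 to 8, in capitals, to give the letters that were searched in the Wnt genes.
mmu-miR-200a-3p (chr4:156054911-156054932, minus strand): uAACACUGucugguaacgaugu
mmu-miR-141-3p (chr6:124717917-124717938, minus strand): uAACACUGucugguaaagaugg
mmu-miR-200b-3p (chr4:156055685-156055706, minus strand): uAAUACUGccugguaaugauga
mmu-miR-200c-3p (chr6:124718324-124718346, minus strand): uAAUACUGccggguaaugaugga
mmu-miR-429-3p (chr4:156053916-156053937, minus strand): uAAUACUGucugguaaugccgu
Sites complementary to bases 2 to 8 followed by an A, CAGTGTTA for the first 2 and CAGTATTA for the other 3, were searched on the transcribed strand of annotated 3′ UTRs (GENCODE M21, GRCm38). Of the 49 Wnt genes, 1 held either site, Fzd3, whose 10270-base 3′ UTR held 1 of each. Either site occurred in 6.67% of 21004 3′ UTRs, CAGTATTA in 3.14% and CAGTGTTA in 3.86%. Only these 8-base matches were searched, in the longest annotated 3′ UTR of each gene. Shorter seed matches in the other Wnt genes were not searched. Both Fzd3 sites are shown with the 8 matched bases in capitals.
Fzd3 CAGTATTA site (chr14:65199715-65199722, minus strand): aagatccaaggCAGTATTAagctcaaaaca
Fzd3 CAGTGTTA site (chr14:65197793-65197800, minus strand): ctctaggacccCAGTGTTAgaaaagtatcc
A match is a description of letters and not a measured site.

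Promoter windows from 250 bases before to 50 bases after the start (RefSeq, GRCm38.p6) were on hand for 33 of the 49 genes. CAGGTG or CAGGTA on either strand occurred in 9 of these 33 genes, or 27.3%, against 32.5% of 27025 genes. For 3 genes described with their ovary values below, 30 bases around a CAGGTG are shown on the gene's strand with the motif in capitals.
Sfrp5 (chr19:42202464-42202493, minus strand): cacagagataagCAGGTGaagtgagtgaga
Wnt10b (chr15:98778323-98778352, minus strand): gagaccccggagCAGGTGagtggaactccg
Wnt2b (chr3:104961900-104961929, minus strand): gggtggccagagCAGGTGgggacgcggcgc
Sfrp5 was higher in older 200M ovary, Wnt10b was lower there and Wnt2b was lower in young 200M ovary. The other members with a match were Fzd5, Wif1, Wnt3a, Wnt4, Wnt5b and Wnt9b. Of these, only Fzd5 passed in a comparison of genotypes, where it was higher in young 200M pituitary. A link between motif and level was not tested.

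The leading members differed between the tissues of WT mice. Levels between genes are given here as mean CPM per kb of exon ± SD. In young pituitary the highest members were the co-receptor Lrp6 (32.6 ± 1), the receptor Fzd3 (14.5 ± 1.9) and Axin2 (11.7 ± 1.22). In older pituitary they were Lrp6 (21.3 ± 1.24), Axin2 (11.9 ± 1.77) and Dkk3 (8.8 ± 2.28), a divergent member of the Dkk family. Lrp6 lay above every other member in both pituitary cohorts, whereas the values of Axin2 and Dkk3 in the older cohort differed by less than their summed SDs.

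The ovary had the largest summed CPM of the family. Over the 49 genes it reached 329 CPM per kb in young and 429.7 in older WT ovary, against 115 to 151 in the other 4 tissue and cohort groups. CPM was scaled within each tissue and cohort and is relative to all other genes. Hormone genes take a large share of pituitary reads, so these sums do not compare amounts of RNA between tissues. Young WT ovary was led by Lrp6 (39.1 ± 3.32), the antagonist Sfrp1 (35.1 ± 1.65) and Fzd3 (15.9 ± 1.18). Older WT ovary was led by the ligands Wnt10b (61.6 ± 26.9) and Wnt4 (43.2 ± 25.9), which did not differ beyond their spread, and by Lgr4 (25.6 ± 4.37). Wnt10b, a ligand best known for holding back fat cell differentiation, was near the limit of detection outside the ovary, with WT means of 0.109 and 0.0564 CPM in young and older pituitary and of 0.197 and 0.531 CPM in hypothalamus.

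Hypothalamus was led by Fzd3 (32 ± 1.63), Lrp6 (14.1 ± 0.897) and Dkk3 (12 ± 1.1) in the young cohort, and by Dkk3 (29.1 ± 2.89), Sfrp5 (16.4 ± 1.55) and Rspo1 (10.8 ± 1.03) in the older. Few ligands were expressed in pituitary, where 4 of 19 reached a mean of 1 CPM in young and 6 in older WT mice, against 11 in ovary of both cohorts. The highest ligand per kb was Wnt9a in young pituitary (2.49) and Wnt10a in older pituitary (6.32), Wnt4 in young ovary (15.2), Wnt5a in young hypothalamus (3.69) and Wnt7b in older hypothalamus (5.91). Fzd3, a receptor known from axon guidance, had a WT mean of 184 CPM in young and 22.9 CPM in older pituitary, and of 408 and 18.9 CPM in hypothalamus. It overlaps other annotated genes and the 2 cohorts were counted differently, so that contrast cannot be told apart from the library chemistry.

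**Figure D1:**
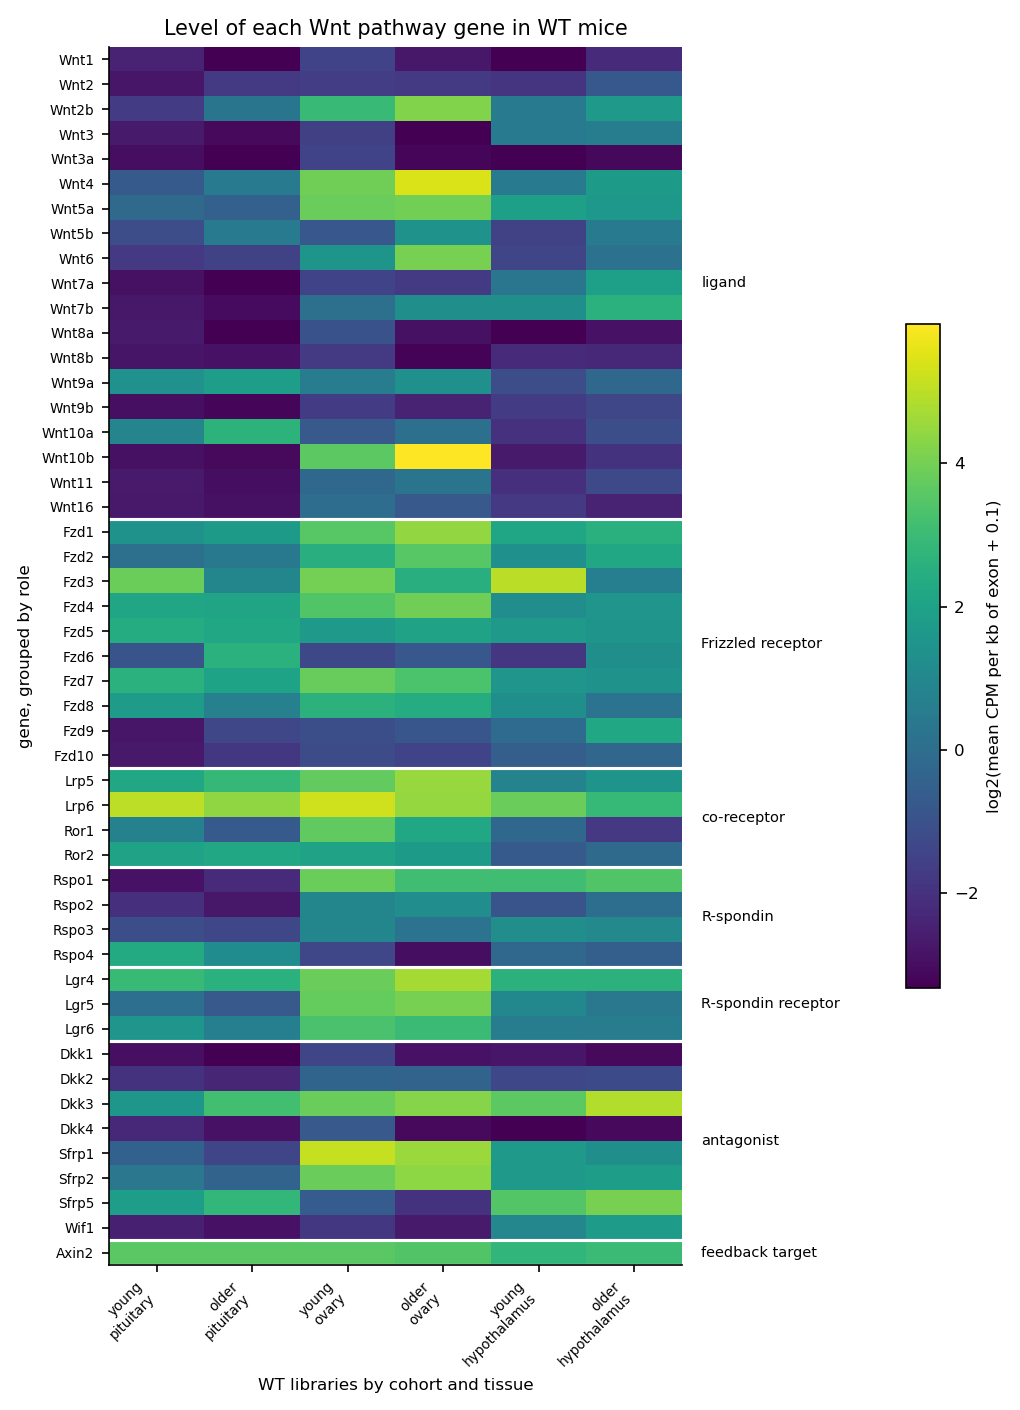
Heatmap of WT levels of the 49 Wnt genes (rows, grouped by role) in the 3 tissues of the young and older cohorts (columns). Colour is log2(mean CPM per kb of exon + 0.1) over 3 or 4 libraries; Lrp6 is bright in the pituitary and young columns, and Wnt10b and Wnt4 stand out in older ovary.

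Across the 18 comparisons of 2 genotypes, 18 members passed the test (adjusted p below 0.05 over all genes) at least once, 25 were tested and never passed, and 6 were too low to be tested in any comparison. The last were Dkk1, Dkk4, Wnt1, Wnt3a, Wnt8a and Wnt8b, whose highest group mean was 1.04 CPM. Only genes above a minimum count, fixed without regard to genotype but reached more easily by a gene that is high in 1 group, were tested, so the counts below refer to tested members. Of 582 tests of members 33 passed by edgeR, all in pituitary and ovary, the tissues where nearly all edgeR calls of other genes also fell. In hypothalamus at most 0.0202% of all genes passed in any comparison by edgeR. At an unadjusted p below 0.05 by that test, however, 18.1% of all genes differed in older 200M hypothalamus against WT. With DESeq2, the paper reports far more changed genes in that comparison than in its other hypothalamus comparisons with WT. The share of all genes was not computed for these totals and is given with each comparison below. In bulk tissue, fewer cells of a type and less RNA per cell cannot be told apart. Comparisons with WT of 1 tissue and cohort share their WT libraries.

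In young 200M pituitary, 7 of 26 tested members rose and 2 fell against WT. The background over all genes was high: 21.5% of genes passed, 11.5% raised and 10% lowered. The median log2 difference was 0.24 over the tested members and 0.0017 over all genes, and 20 of the 26 were higher in 200M. By role, the members that passed were 2 of 4 tested ligands, 3 of 8 Frizzleds, 1 of 4 co-receptors, 1 of 2 R-spondins, 1 of 3 Lgr receptors and 1 of 4 antagonists. In young 200H pituitary, 2 of 27 tested members rose and 2 fell, where 12.3% of all genes passed, 6.56% raised and 5.72% lowered. In older 200M pituitary 3 of 27 rose and 1 fell (all genes 21.4%, with 11.7% raised and 9.77% lowered), and in older 200H pituitary 3 of 27 rose and 1 fell (12.2%, with 7.09% and 5.14%). Except in young 200M, the share of members that passed was thus near or below that of all genes. The median log2 difference of the tested members was 0.22 in young 200H, 0.24 in older 200M and 0.08 in older 200H, against 0.0067, −0.0127 and −0.0083 over all genes. Single libraries moved these counts: 5 members passed in young 200M without 200M replicate 2, 2 in young 200H without WT replicate u, 2 in older 200M without 200M replicate 1 or WT replicate 2 and 7 without WT replicate 4, and 0 in older 200H without 200H replicate 3 or 4.

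Wnt10a and Wnt9a, the ligands with the highest WT level per kb in pituitary, moved in opposite directions. Wnt10a (chr1:74791516-74804179, plus strand), known for its role in teeth and skin appendages, stood at 3.68, 4.07 and 5.29 CPM in the young WT libraries, 13.5, 9.87, 8.5 and 8.08 in 200H and 12, 9.32, 8.25 and 9.01 in 200M. Every knock-in library lay above every WT library. The log2 difference was 1.14 ± 0.195 (SE) in 200M, or 2.22-fold between means (adjusted p = 0.000688), and 1.19 ± 0.221 in 200H (adjusted p = 0.00338). In older pituitary Wnt10a stood at 10.8, 16.9, 19 and 15.8 CPM in WT, 18.4, 18.1, 32.7 and 30.8 in 200H and 32.6, 25.2 and 26.6 in 200M. The 200M libraries were again all above WT, by a log2 difference of 0.86 ± 0.171 (adjusted p = 0.00396), whereas 200H overlapped WT and did not pass (0.68, adjusted p = 0.0661). Its neighbour Wnt6, 6193 bases away on the same strand, was between 0 and 1.2 CPM in pituitary.

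Wnt9a (chr11:59306928-59333552, plus strand), a ligand needed for joint formation, stood at 8.18, 8.14 and 8.56 CPM in young WT, 3.82, 3.61, 6.17 and 2.8 in 200H and 4.19, 5.16, 4.12 and 5.55 in 200M. No knock-in library reached the WT values. Wnt9a fell by 0.82 on the log2 scale (SE 0.177, adjusted p = 0.00388) in homozygous and by 1.03 (SE 0.231, adjusted p = 0.0108) in the heterozygous libraries. The older pituitary values were 11.2, 9.9, 13.4 and 13 CPM in WT, 10.4, 8.74, 11.5 and 8.59 in 200H and 6.9, 5.42 and 5.73 in 200M. Only the 200M libraries lay apart from WT, and the log2 differences were −0.97 ± 0.189 for 200M (adjusted p = 0.00363) and −0.28 ± 0.158 for 200H (adjusted p = 0.297). The older 200M and 200H libraries did not differ by the test (−0.70, adjusted p = 0.181). Wnt5a, the archetype of β-catenin-independent ligands, passed in 1 of the pituitary comparisons, older 200M against WT, at 4.14, 3.33, 4.8 and 5.25 CPM in WT and 8.37, 6.97 and 7.57 in 200M (log2 0.82 ± 0.213, adjusted p = 0.017). That call was lost without 200M replicate 1 or 3 or WT replicate 2 (adjusted p up to 0.0695), and in young 200M its log2 difference was 0.51 (adjusted p = 0.0945).

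Among Frizzled receptors, Fzd5 (chr1:64730558-64737751, minus strand), known for eye development, had the clearest separation in the young cohort. Its CPM was 36.3, 34.5 and 37.6 in young WT, 38.8, 52.7, 44.8 and 41.2 in 200H and 54.6, 58.4, 65.1 and 43.8 in 200M. All 200M libraries were above WT, and the difference of 0.61 ± 0.104 on the log2 scale was 1.53-fold (adjusted p = 0.000641). In the older cohort Fzd5 was 29.7, 27.7, 28.8 and 38.4 CPM in WT and 32.8, 40.7 and 36.8 in 200M, with overlap and no call (log2 0.25, adjusted p = 0.188).

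Fzd2, a receptor that binds Wnt5a, was 3.37, 2.64 and 4.76 CPM in young WT and 6.21, 5.99, 5.47 and 6.54 in 200M (log2 0.74 ± 0.219, adjusted p = 0.0261). The groups did not overlap, but the call was lost without WT replicate 1 or 2 or 200M replicate 1 or 2 (adjusted p up to 0.104). In older pituitary its log2 difference was 0.76 (adjusted p = 0.0523). Fzd3, the member with the miR-200 site matches shown above, passed in young 200M at 175, 212 and 167 CPM in WT and 228, 214, 222 and 211 in 200M. These groups overlapped, and the log2 difference of 0.24 ± 0.078 (adjusted p = 0.0405) was lost without any 1 of 6 of the 7 libraries, all but WT replicate 2 (adjusted p up to 0.19). In older pituitary Fzd3 was 17.7, 17.7, 27.6 and 28.6 CPM in WT and 29.7, 34.6 and 30.9 in 200M (log2 0.50, adjusted p = 0.0652). Fzd8 fell in older 200H, with 8, 8.76, 10 and 10.2 CPM in WT and 6.63, 6.18, 5.15 and 5.41 in 200H (log2 −0.64 ± 0.158, adjusted p = 0.0203). Its adjusted p reached 0.05 to 0.0604 without WT replicate 3 or 4 or 200H replicate 3 or 4, and in 200M it was −0.52 (adjusted p = 0.056). Fzd7, named after its values were seen, rose by 0.38 in older 200H (adjusted p = 0.0458) and its call depended on 6 of the 8 libraries, all but WT replicate 4 and 200H replicate 2 (adjusted p up to 0.14).

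Ror2, the Wnt5a co-receptor, was 17.6, 17.5 and 13.9 CPM in young WT pituitary, 26.5, 23.3, 25.8 and 21.3 in 200H and 19.4, 25.1, 23.9 and 20.9 in 200M. Both knock-in groups lay above WT, by 0.56 ± 0.122 in 200H (adjusted p = 0.00887) and 0.45 ± 0.124 in 200M (adjusted p = 0.0185) on the log2 scale. The call depended in both comparisons on WT replicate u (adjusted p = 0.0561 in 200H and 0.101 in 200M without it), and in 200M also on 200M replicates 2 and 3. In older 200M the log2 difference was 0.25 (adjusted p = 0.318). Its relative Ror1, named after its values were seen, rose in older pituitary by 0.79 ± 0.250 for 200M (adjusted p = 0.0421) and 0.70 ± 0.184 for 200H (adjusted p = 0.027). The 200M call of Ror1 was lost without any 1 library except 200M replicate 3 (adjusted p up to 0.172), and the 200H call without 200H replicate 3 or 4 or WT replicate 2, 3 or 4 (adjusted p up to 0.0805). Lrp6, the highest member in pituitary, did not pass in 200M of either cohort, with log2 differences of −0.05 (adjusted p = 0.551) in young and −0.20 (adjusted p = 0.102) in older mice.

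Rspo4, the R-spondin known for nail formation, was 12, 12.8 and 11 CPM in young WT pituitary, 8.52, 8.84, 5.97 and 9.01 in 200H and 6.29, 6.16, 6.37 and 8.76 in 200M. No knock-in library reached the WT values, and Rspo4 fell by 0.81 (SE 0.165, adjusted p = 0.00258) in 200M. In 200H it fell by 0.56 (SE 0.169, adjusted p = 0.0452), but that call was lost when any 1 of the 7 libraries was left out, with adjusted p of 0.0536 without 200H replicate 2 up to 0.133 without WT replicate 2. In older pituitary Rspo4 was 3.31, 4.55, 5.6 and 6.89 CPM in WT and 2.51, 4 and 7.57 in 200M, which overlapped fully (log2 −0.12, adjusted p = 0.843).

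The other 3 pituitary calls, of genes that were named after their values were seen, were small or unstable. Lgr4 rose by 0.31 ± 0.079 in young 200M (adjusted p = 0.0116, and 0.0658 without WT replicate u). The antagonist Sfrp2 rose from a mean of 2.33 to 4.23 CPM in young 200M (adjusted p = 0.024), and the call failed without WT replicate 1 or 2 or 200M replicate 1, 2 or 3 (adjusted p up to 0.104). Lgr6 rose from 10.2 to 19.1 CPM in older 200H (adjusted p = 0.0461), with groups that overlapped and a call that failed without any 1 library except 200H replicate 2 (adjusted p up to 0.123). Axin2, the feedback target of β-catenin, did not pass in pituitary, with log2 differences in 200M of −0.01 ± 0.096 (adjusted p = 0.957) in young and −0.05 ± 0.122 (adjusted p = 0.826) in older mice.

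**Figure D2:**
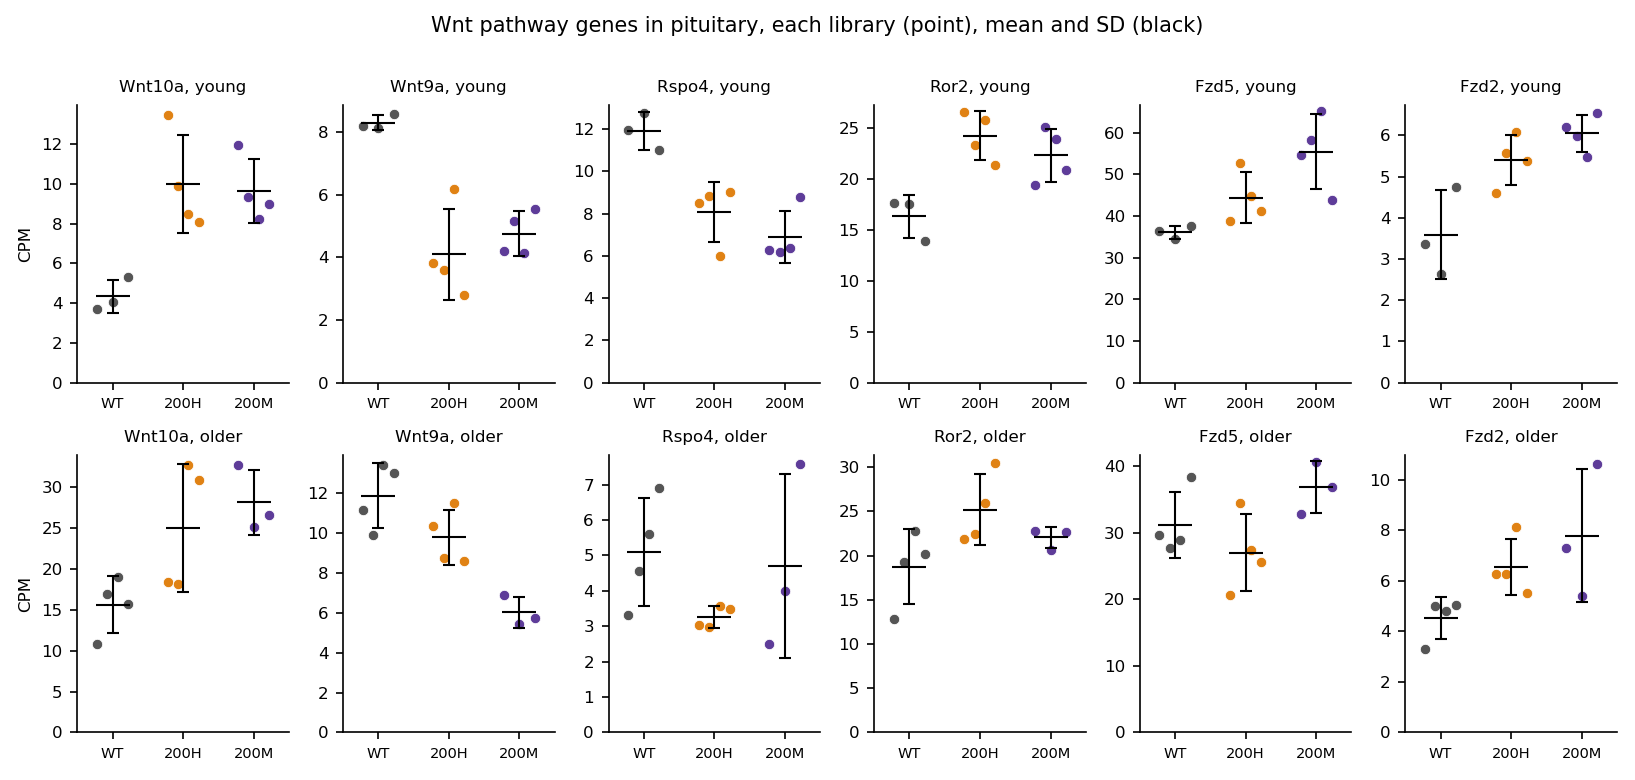
CPM of Wnt10a, Wnt9a, Rspo4, Ror2, Fzd5 and Fzd2 in each pituitary library (points) of WT, 200H and 200M in the young (upper row) and older (lower row) cohorts, with the mean and SD as bars. Wnt10a of the young knock-in libraries lies between 8.08 and 13.5 CPM, above all WT libraries, while Wnt9a lies between 2.8 and 6.17 CPM, below all WT libraries.

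Other cell markers moved with the pituitary genotype. The summed markers of non-gonadotrope endocrine cells were 160054 to 183746 CPM in young WT, 70210.4 to 98799 in 200H and 65614 to 88093 in 200M, and 285357 to 328862, 150801 to 226716 and 162817 to 207640.0 in the older cohort. Summed fibroblast markers were 534 to 653 CPM in young WT and 291 to 395 in 200M, and 649 to 1000.2 and 413 to 526 in the older cohort. These sums rest on few genes. Of the 6 endocrine markers, Prl and Pou1f1 were lowered in young 200M and Prl was lowered and Pomc raised in older 200M, with a median log2 difference of 0.026 and 0.030. Of the 5 fibroblast markers, Col1a2 was lowered in both cohorts, while Dcn was raised in both and Pdgfra in the older, with medians of 0.21 and 0.46. Summed astrocyte and pituicyte markers were 17.8 to 26.6 CPM in older WT and 46.6 to 55.6 in older 200M, and all markers of these lists were detected. The part of these shifts in the Wnt values was not tested. With size factors by the RLE method in place of TMM, no count of passing members moved by more than 1.5 times.

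Between 200M and 200H pituitary, 0 members passed in either cohort by edgeR and by DESeq2, where 0.0383% of all genes passed in young and 0.121% in older mice. At an unadjusted p below 0.05 there were 2 of 27 tested members in the young and 4 of 29 in the older cohort, beside 5.92% and 10.6% of all genes.

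In young 200M ovary 3 of 35 tested members fell and 0 rose against WT, where 2.58% of all genes passed, 0.878% raised and 1.7% lowered. In older 200M ovary 1 of 36 rose and 3 fell against WT (all genes 2.71%, with 1.52% raised and 1.19% lowered). Against 200H, 1 of 35 rose and 4 fell (1.61%, with 0.711% and 0.902%). The median log2 difference of the tested members was −0.05 in young and −0.16 in older 200M against WT, beside 0.0061 and 0.041 over all genes. In 200H against WT 0 members passed by edgeR and by DESeq2 in either cohort, where 0.0051% of all genes passed in young and 0% in older mice. At an unadjusted p below 0.05 there were 7 of 38 members in young and 5 of 36 in older mice, beside 7.05% and 6.59% of all genes. For young 200M against 200H the count was 0 by both tools, where 0% of all genes passed, with 2 of 34 members and 3.36% of all genes at an unadjusted p below 0.05. In older 200M ovary, 1 member passed against WT without WT replicate 2 or 3 and 2 without 200M replicate 1, and against 200H 1 passed without 200H replicate 2 or 200M replicate 1.

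Wnt10b (chr15:98770712-98778150, minus strand) had the largest difference of any member. In older ovary it stood at 76.5, 228, 252 and 282 CPM in WT, 261, 181, 173 and 154 in 200H and 0.546, 1.08, 1.16 and 0.682 in 200M. All 4 homozygous libraries were thus near 0, with 5, 9, 14 and 9 reads, while WT and 200H overlapped. The means differed 241-fold (log2 −7.89 ± 0.504, adjusted p = 0.000514) between 200M and WT and 221-fold (log2 −7.79 ± 0.284, adjusted p = 5.45e-06) between 200M and 200H. The 200H difference from WT was −0.10, with an interval of 2 SE from −0.80 to 0.60 (adjusted p = 0.951). Its neighbour Wnt1, 11706 bases away on the opposite strand, was between 0 and 1.14 CPM in ovary.

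In young ovary Wnt10b was 49.6, 27.8, 44.3 and 43.3 CPM in WT, 2.07, 27.9, 8.46 and 31.3 in 200H and 0.489, 27.6, 1.57 and 0.919 in 200M. Of the 200M libraries 3 were near 0 and 1, replicate 2, was at the level of the lowest WT library, and the 200H libraries ranged between both. With all libraries the log2 difference was −2.33 ± 0.676 for 200M (adjusted p = 0.0891) and −1.18 ± 0.508 for 200H (adjusted p = 0.698). Without 200M replicate 2 it was −5.37 (adjusted p = 2.62e-08).

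Wnt10a, raised in pituitary, fell in older 200M ovary. It stood at 1.49, 1.76, 4.02 and 2.3 CPM in WT, 1.94, 3.49, 1.98 and 2.41 in 200H and 0.218, 0.12, 0.25 and 0 in 200M. The 200M libraries held 2, 1, 3 and 0 reads, so the fitted log2 differences of −3.96 ± 0.615 against WT (adjusted p = 0.0167) and −4.02 ± 0.554 against 200H (adjusted p = 0.0126) rest on few reads. The first was lost without WT replicate 2 or 3 or 200M replicate 1 (adjusted p up to 0.0567), and the second without 200H replicate 2 or 200M replicate 1 (adjusted p up to 0.0575). In young ovary Wnt10a did not pass, with 1.78, 1.14, 0.679 and 1.43 CPM in WT and 0.611, 0.897, 1.14 and 0.115 in 200M.

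Wnt2b (chr3:104945272-104961921, minus strand), a ligand that with Wnt2 specifies the lung, fell in young 200M ovary. It was 25.5, 22.5, 25.9 and 27.7 CPM in WT, 11.9, 21.9, 17.1 and 13.9 in 200H and 10.6, 16.4, 10.1 and 10.9 in 200M. Every 200M library lay below WT, by −1.06 ± 0.140 on the log2 scale, 2.11-fold (adjusted p = 0.00324). The 200H libraries also lay below WT but did not pass (−0.60, adjusted p = 0.416). In older ovary Wnt2b was 59.7, 60.1, 42.5 and 79.4 CPM in WT and 38, 4.31, 31.7 and 35.7 in 200M (log2 −1.12 ± 0.512, adjusted p = 0.316). Wnt5a fell in young 200M from 115, 79.8, 104 and 102 CPM in WT to 78.6, 82.9, 57.5 and 65.2, with overlap (log2 −0.48 ± 0.109, adjusted p = 0.0346). That call was lost without any of 6 single libraries, WT replicates 1, 3 and 4 and 200M replicates 1, 3 and 4 (adjusted p up to 0.126), and in older ovary the difference was −0.09 (adjusted p = 0.793). Wnt4, the ligand of female gonad development, did not pass in young (−1.07, adjusted p = 0.0748) or older ovary (−0.90, adjusted p = 0.37), and without young 200M replicate 2 it was −1.69 (adjusted p = 8.23e-07).

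Lgr5 (chr10:115450311-115587780, minus strand), the R-spondin receptor that marks stem cells of the gut and is found in the ovarian surface epithelium, was lower in 200M ovary of both cohorts. In young ovary it was 64.9, 48.2, 63.9 and 77.5 CPM in WT, 16, 44.4, 30.2 and 42.6 in 200H and 14.9, 35.4, 13.7 and 15.7 in 200M. All 200M libraries were below WT, 3.19-fold between means (log2 −1.64 ± 0.235, adjusted p = 0.0047). The 200H libraries were also all below WT without passing (−0.87 ± 0.256, adjusted p = 0.452). In older ovary Lgr5 was 42.6, 152, 41.9 and 76.7 CPM in WT, 83, 141, 50.2 and 35.4 in 200H and 18.3, 3.84, 10.8 and 14.6 in 200M. The 200M libraries again lay apart from both other groups, 6.58-fold below WT (log2 −2.69 ± 0.543, adjusted p = 0.0375) and below 200H (−2.71 ± 0.542, adjusted p = 0.0478). Of the 8 fits that each left out 1 library, only that without WT replicate 1 kept the older call against WT, with an adjusted p of 0.0305 to 0.103 over the 8. Likewise only that without 200H replicate 4 kept the call against 200H, with adjusted p of up to 0.138. The difference of the 200M effect between older and young ovary was −1.06 ± 0.623 (adjusted p = 0.513).

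The antagonist Sfrp5, which binds Wnt5a in fat tissue, was the 1 member that rose in older 200M ovary. It was 0.263, 0.32, 0.456 and 0.164 CPM in WT, 0.553, 0.0944, 0.41 and 0.602 in 200H and 13.3, 2.28, 3.33 and 9.33 in 200M. All 4 homozygous libraries were above every other library, 23.5-fold over WT between means (log2 4.53 ± 0.671, adjusted p = 0.0145) and by 4.02 ± 0.692 over 200H (adjusted p = 0.028). Sfrp5 stood at most at 0.602 CPM in older WT and 200H. It passed the count filter in older ovary only through its 200M libraries, so both differences rest on few WT and 200H reads. The call against WT was lost without WT replicate 2 or 3 (adjusted p up to 0.0669), and that against 200H was lost without any 1 library except 200M replicate 2 or 3 (adjusted p up to 0.0957). In young ovary Sfrp5 was between 0 and 1.52 CPM in all 12 libraries. Fzd2 was 51, 38.2, 32.7 and 46.1 CPM in older WT, 52.1, 52.6, 53.7 and 47.3 in 200H and 28.6, 31, 36.4 and 34.4 in 200M. It passed only against 200H (−0.67 ± 0.109, adjusted p = 0.0246), and that call was lost without 200H replicate 1, 2 or 3 or 200M replicate 1 or 4 (adjusted p up to 0.0888). Axin2 did not pass, at −0.39 (adjusted p = 0.0794) in young and −0.17 (adjusted p = 0.71) in older 200M ovary, and neither did Rspo1 at −0.28 (adjusted p = 0.447) and 0.24 (adjusted p = 0.738).

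**Figure D3:**
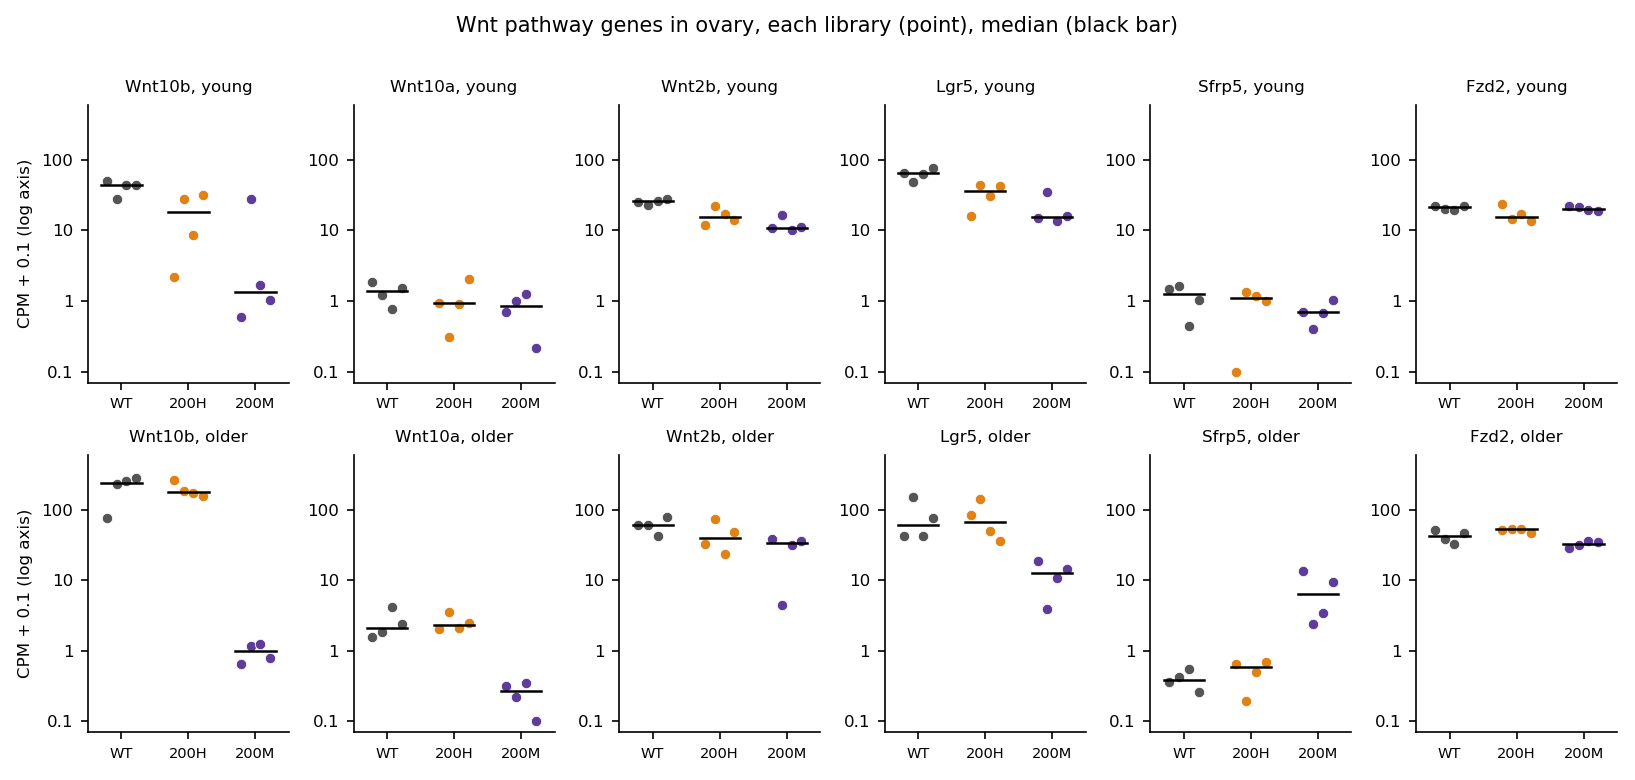
CPM + 0.1 on a log axis of Wnt10b, Wnt10a, Wnt2b, Lgr5, Sfrp5 and Fzd2 in each ovary library (points) of WT, 200H and 200M in the young (upper row) and older (lower row) cohorts, with a bar at the median. In older ovary Wnt10b of the 4 200M libraries lies between 0.546 and 1.16 CPM, against 76.5 to 282 in WT, and in young ovary 1 200M library stands at 27.6 CPM.

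A single library weighed heavily on the count of passing members in young ovary. Without 200M replicate 2, 11 members passed in place of 3, the additional ones being Wnt10b, Wnt4, Fzd1, Fzd4, Axin2, Dkk3, Sfrp2 and Rspo2, of which Rspo2 alone was raised. That library lay with WT in several of them: Fzd1 was 37.3 to 60.4 CPM in WT and 20.5, 49.7, 17.4 and 18.6 in 200M, and Sfrp2 was 16.1 to 39 CPM in WT and 3.79, 39, 3.99 and 3.79 in 200M. Fzd1 and Sfrp2 were named after their values were seen. The 2.58% of all genes given above belongs to the fit with all libraries, and the share without 200M replicate 2 is not given. Whether the rise to 11 is particular to the Wnt genes therefore cannot be told. The paper marks a young 200M ovary sample from a mouse whose other ovary held corpora lutea. It also marks a young 200H sample from a mouse whose other ovary held none. The labels do not say which libraries these are, and their part in the Wnt values was not tested.

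Ovarian cell markers varied as well. Summed luteal markers were 11388 to 30757 CPM in older WT, 14765 to 23422 in 200H and 5048 to 11390 in 200M, and summed macrophage markers were 128 to 246, 159 to 207 and 286 to 548 CPM. In young ovary the luteal sums overlapped, at 4777 to 6251 CPM in WT and 3498 to 6187 in 200M. By gene, however, Akr1c18 and Cyp11a1 of the 5 luteal markers were lowered in young 200M (median log2 −1.52), and Akr1c18, Ptgfr and Star in older 200M (median −3.77). Summed markers of ovarian surface and oviduct epithelium were 3577 CPM in older 200M replicate 3 and 3377 in older 200H replicate 4, against 51.3 to 897 in the other older libraries. Wnt16 and Wnt11, named after their values were seen, were highest in those 2 libraries, with Wnt16 at 39.9 and 25.8 CPM and Wnt11 at 39.6 and 14.1 CPM, against at most 7.79 and 8.67 CPM elsewhere in older ovary. All markers of these lists were detected in ovary, and the part of cell makeup in the Wnt values was not tested.

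In hypothalamus 0 members passed in any of the 6 comparisons by edgeR. In the young cohort 5 of 28 tested members had an unadjusted p below 0.05 in 200M against WT, 1 of 27 in 200H against WT and 4 of 28 in 200M against 200H, beside 5.65%, 3.93% and 4.6% of all genes at that threshold. At the adjusted threshold 0.02%, 0.0202% and 0% of all genes passed. In the older cohort the counts at an unadjusted p below 0.05 were 4 of 41, 0 of 40 and 2 of 41, beside 18.1%, 2.8% and 19.5% of all genes. At the adjusted threshold 0.00622%, 0% and 0% of all genes passed. DESeq2 gave 0 members as well, except 1, Fzd3, in older 200M against WT and against 200H.

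Fzd3 in older hypothalamus was 15.5, 14.3, 24.6 and 21.1 CPM in WT, 14.6, 15.1, 30.1 and 22.1 in 200H and 12.3, 6.62 and 10.3 in 200M. All 3 homozygous libraries lay below both other groups, by −0.96 ± 0.227 against WT (adjusted p = 0.112, or 0.00323 with DESeq2) and −1.07 ± 0.269 against 200H (0.14, or 0.00488 with DESeq2). Without WT replicate 1 the edgeR value against WT was 0.0499. In young hypothalamus Fzd3 was 402, 436, 408 and 386 CPM in WT and 459, 384, 377 and 342 in 200M, with overlap. Fzd5 in young hypothalamus was 23.9, 16.1, 19.4 and 24.1 CPM in WT and 62.4, 23.9, 33.4 and 41.1 in 200M, of which replicate 2 lay at the WT level (log2 0.94 ± 0.205, adjusted p = 0.318, and 0.0235 without that replicate). Summed neuron markers were 1120 to 1156 CPM in young WT and 894 to 1183 in 200M, and 1371 to 1509 and 1133 to 1388 in the older cohort.

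Several members responded differently in pituitary and ovary by a direct test of the difference between the 200M effects. In young mice 7 of 40 tested members had a more positive 200M effect in pituitary and 0 a more negative one, where 10.1% of all genes passed, 5.68% and 4.45% by direction. They were Wnt10a (difference of log2 effects 1.99 ± 0.504, adjusted p = 0.0137), Wnt2b (1.96 ± 0.515, adjusted p = 0.0174), Lgr5 (1.71 ± 0.385, adjusted p = 0.00579) and Wnt5a (0.99 ± 0.233, adjusted p = 0.00802), with Fzd2, Fzd5 and Lgr4 at 0.77, 0.59 and 0.47. The calls of Wnt10a, Lgr5 and Wnt5a held in all 15 fits that each left out 1 library, those of Wnt2b and Fzd2 in 13, that of Fzd5 in 9 and that of Lgr4 in 8. Wnt2b did not pass the count filter in young pituitary 200M against WT. It entered this test through its ovary counts, so its difference rests on a low pituitary level. Without young ovary 200M replicate 2, 14 members passed in place of 7. The 10.1% of all genes belongs to the fit with all libraries, and the share without that library is not given. The rise to 14 therefore cannot be read as particular to the Wnt genes.

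In older mice 5 of 38 were more positive and 2 more negative in pituitary, where 5.77% of all genes passed, 3.29% and 2.48% by direction. Wnt10a differed by 4.82 ± 0.602 (adjusted p = 0.000609) and Sfrp5 by −4.63 ± 0.725 (adjusted p = 0.00226). Both held in all 15 fits with 1 library left out. Both differences nevertheless rest on few ovary reads, of Wnt10a in the homozygous and of Sfrp5 in the WT libraries. Leaving out libraries does not lift that limit. The older ovary calls against WT of both genes were themselves lost without certain single libraries. Lgr4 (1.27), Ror1 (1.29), Fzd2 (1.15), Wnt5a (0.93) and Wnt9a (−1.07) also passed. Of these, Ror1, Fzd2, Wnt5a and Wnt9a held in 7, 5, 5 and 6 of the 15 fits, and Lgr4 in 14.

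Between pituitary and hypothalamus, 0 of 33 members differed in young mice by edgeR (10.5% of all genes passed, and at an unadjusted p below 0.05 there were 4 members and 22.8% of all genes). In older mice 5 of 41 were more positive in pituitary and 0 more negative (all genes 17.5%, with 10.4% and 7.08% by direction). Fzd3 differed by 1.46 ± 0.313 (adjusted p = 0.0037), Fzd2 by 1.14 ± 0.319 (adjusted p = 0.0197) and Wnt5a by 0.86 ± 0.222 (adjusted p = 0.0123). The Fzd2 call was lost without older pituitary 200M replicate 3 (adjusted p = 0.0895), and the Wnt5a call with a gene length trend removed (adjusted p = 0.0768). The other two, Wnt3 and Wnt7a, rest on almost no pituitary reads: WT libraries held at most 2 Wnt3 and 0 Wnt7a reads and 200M libraries at most 4 and 3. Between the cohorts, 0 of 30 members differed in pituitary by edgeR (0.0273% of all genes passed, and at an unadjusted p below 0.05 there were 3 members and 6.85% of all genes), with Wnt10a at −0.33 ± 0.263 and Wnt9a at −0.20 ± 0.250 for older minus young. In ovary 1 of 39 differed, Sfrp5 (5.25 ± 0.885, adjusted p = 0.0296), where 0.197% of all genes passed, 0.142% raised and 0.0551% lowered. That call held in 7 of 16 fits with 1 library left out (adjusted p up to 0.0783), and the cohort difference cannot be told apart from that of the chemistry. It too rests on few Sfrp5 reads, in older WT and in young ovary.

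**Figure D4:**
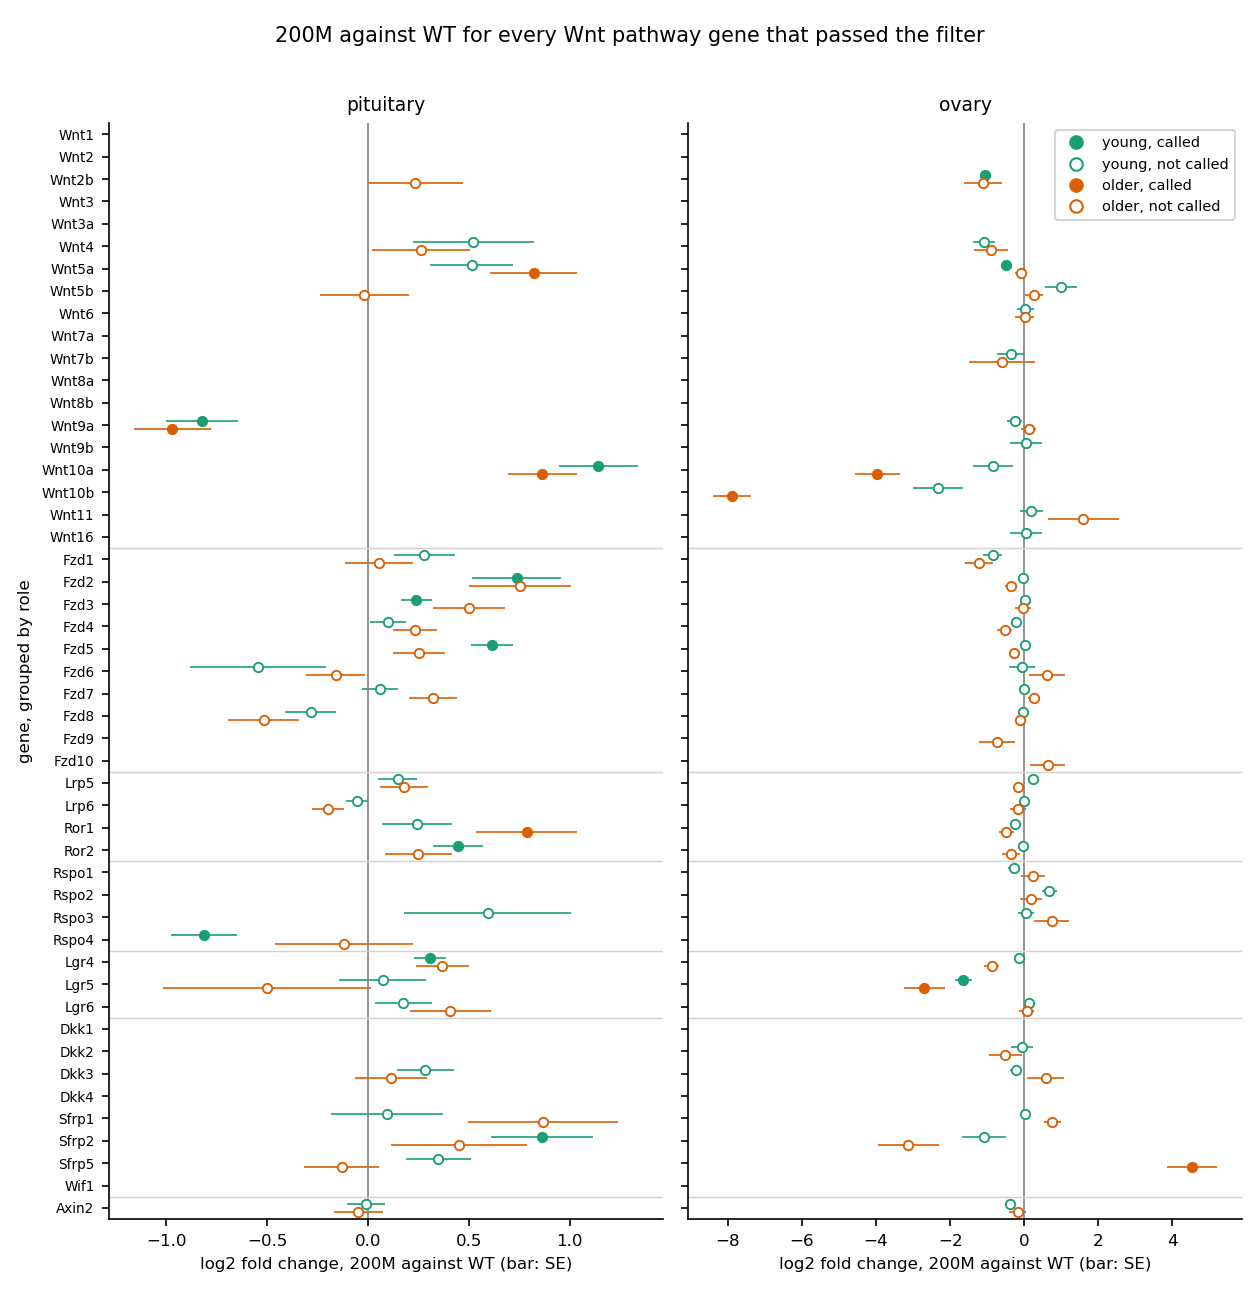
Log2 difference of 200M against WT with its SE for tested members in pituitary (left) and ovary (right, on a wider axis), young in green and older in orange, filled where the adjusted p is below 0.05. Wnt10a lies right of 0 in pituitary, at 1.14 and 0.86, and left of 0 in older ovary, at −3.96.

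Of the rest of the pathway, 68 genes that are no members were counted, from secretion and receptor turnover through other antagonists and cytoplasmic and nuclear components to target genes. In pituitary 14 of 59 tested rose and 10 fell in young 200M (median log2 0.11), where 11.5% of all genes were raised and 10% lowered. In older 200M 11 of 56 rose and 10 fell (0.03), where 11.7% of all genes were raised and 9.77% lowered. Apc2, a neural relative of the β-catenin scaffold Apc, rose most, from a mean of 7.99 to 34.2 CPM in young (log2 2.09, adjusted p = 2.43e-08) and from 15.3 to 52.6 CPM in older 200M (1.79, adjusted p = 1.01e-06). Pygo1, a nuclear cofactor of β-catenin, rose by 0.86 (adjusted p = 2.08e-06) and 0.95 (adjusted p = 0.000321). Reck, listed with the receptors, rose by 0.77 in young 200M (adjusted p = 5.95e-06). Of 5 tested target genes, 1 rose (Tnfrsf19) and 2 fell (Myc and Ccnd1) in young 200M. In older 200M 2 of 5 rose (Nkd2 and Tnfrsf19) and 1 fell (Ccnd1). Tnfrsf19 rose there from a mean of 2.15 to 6.01 CPM (adjusted p = 0.000933), and it was also raised in 200H of both cohorts. In ovary 1 of 60 passed in young 200M, Tle2 (−0.38, adjusted p = 0.0319), beside 2.58% of all genes. In older 200M 1 of 61 passed, beside 2.71% of all genes, the antagonist Sfrp4, which fell from a mean of 2867 to 27.6 CPM (log2 −6.68, adjusted p = 0.000378) and which the study had singled out in these libraries.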

How the data were processed

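RNA-seq tables of raw counts per gene, deposited by the authors, were used for all 69 libraries. Per the labels and methods, the authors aligned reads to mm10 with STAR 2.7.1a. They counted the young tissues with strand-specific featureCounts and the older ovary with unstranded featureCounts, on GENCODE basic annotation. Older pituitary and hypothalamus were counted without strand by htseq-count 0.9.1. Reads of overlapping or antisense genes therefore cannot be told apart in the older cohort. Normalised columns (138), columns of fold changes and p-values from the authors' own comparisons, and 3 count columns tied to no sample were not used. For 66 libraries the counts stood in 2 tables and were identical for every gene. Depth per library was 3321845 to 14655095 assigned counts, and read numbers are given for some of the members with few reads. Gene IDs matched a symbol in 99.54% of cases.

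Members, gene lists and tests were chosen with earlier results of these data known. Genotypes were compared 2 at a time within a tissue and cohort with edgeR 4.0.16 (R 4.3.3, TMM scaling, filterByExpr, quasi-likelihood F test), with Benjamini-Hochberg adjustment over all genes and calls at an adjusted p below 0.05. SE is the log2 difference divided by the square root of F. Differences between 200M effects were interaction terms. The steps were tested on simulated data. Printed CPM values are TMM-scaled within a tissue and cohort, and levels per kb use the union of GENCODE M21 exons. No library pair of 1 group agreed within sampling noise (99 pairs, lowest chi-square per degree of freedom 1.89). Members named with values were those called in 1 tissue in both cohorts, the 8 others of smallest p in the comparisons with WT, those called in hypothalamus or between 200M and 200H, and the 3 highest per kb in each WT group. Alternatives were DESeq2 1.42.0, RLE size factors, no filter on low counts, removal of a gene length trend, all genotypes in 1 fit, a replicate block, and leaving out each library in turn. Some sequence is not reported here.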

Additional observations from a re-analysis of the deposited data

Results flagged for a closer look

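Of 98 groups of 4 libraries searched for members that passed a test, 7 held a library whose distance from the others was large against the range of its group, where chance gives about 1 group in 20. In young 200M ovary, replicate 2 stood above the other libraries for Wnt10b (27.6 CPM), Lgr5 (35.4 CPM) and Wnt2b (16.4 CPM). In young pituitary, Ror1 in 200M replicate 4 (14.4 CPM) and Rspo4 in 200M replicate 4 (8.76 CPM) stood high, and Rspo4 in 200H replicate 3 (5.97 CPM) stood low. Fzd2 in older WT pituitary was lowest in replicate 1 (3.31 CPM).

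The effect of the 200M genotype differed between tissues by a direct test for the following members, given as the difference of log2 effects. For pituitary minus ovary in young mice, the values were 1.71 for Lgr5, 0.99 for Wnt5a, 1.99 for Wnt10a, 1.96 for Wnt2b, 0.59 for Fzd5, 0.47 for Lgr4 and 0.77 for Fzd2. Wnt2b was below the count filter in young pituitary 200M against WT. For pituitary minus ovary in older mice, they were −1.07 for Wnt9a, −4.63 for Sfrp5, 0.93 for Wnt5a, 4.82 for Wnt10a, 1.29 for Ror1, 1.27 for Lgr4 and 1.15 for Fzd2. For pituitary minus hypothalamus in older mice, they were 3.10 for Wnt3, 1.46 for Fzd3, 0.86 for Wnt5a, 4.82 for Wnt7a and 1.14 for Fzd2. The values of Wnt3 and Wnt7a rest on almost no pituitary reads. In ovary the effect on Sfrp5 differed between older and young mice by 5.25. Both Sfrp5 differences rest on few older WT ovary reads, and the older Wnt10a difference on few 200M ovary reads.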

How the results depend on the processing

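Of the 33 calls, 12 passed under every alternative: Wnt10a and Wnt9a in young 200M, young 200H and older 200M pituitary, Fzd5 and Rspo4 in young 200M pituitary, Lgr5 and Wnt2b in young 200M ovary, and Wnt10b in older ovary against WT and against 200H. No called value changed sign. The others lost significance under DESeq2 in 6 of 33 cases, without the filter in 2, with a length trend removed in 4, with all 3 genotypes in 1 fit in 3 and with RLE size factors in 0. Libraries that share a number had correlated deviations of −0.701 (older ovary 200H against WT) to 0.436 (young ovary 200M against 200H), and in no comparison with 3 or more pairs did every pair exceed 0.1. Older ovary 200M against 200H came nearest, at 0.332, 0.305, 0.233 and −0.373. The numbers were therefore not taken to pair the samples. A replicate block ended 17 calls. It used only libraries whose number occurs in both groups, so libraries were also dropped in young pituitary against WT and in older 200M pituitary. The effect of the block and that of fewer libraries were not told apart.

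Counts of passing members moved by over 1.5 times as follows, and the cause was not tested. With no filter on low counts they were 9 in young ovary 200M against WT, 5 in 200H against WT and 3 in 200M against 200H, 1 in young hypothalamus 200M against WT, 10 in older pituitary 200M against WT, 7 in 200H against WT and 3 in 200M against 200H, 1 each in older hypothalamus 200M against WT and against 200H, 12 and 3 for pituitary minus ovary in young and older mice, and 2 for ovary older minus young. DESeq2 gave 8 in older ovary 200M against WT, 1 each in older hypothalamus 200M against WT and against 200H, and 2 for ovary older minus young. With all genotypes in 1 fit, older pituitary 200M against WT had 7. With the replicate block the counts were 1 in young hypothalamus 200M against WT, 1 in older pituitary 200H against WT, 1 in older ovary 200M against WT and 2 against 200H, 1 and 4 for pituitary minus ovary in young and older mice, and 0 for ovary older minus young.

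Leaving out 1 library at a time gave counts of 5 to 9 in young pituitary 200M and 2 to 4 in 200H against WT, 2 to 11 in young ovary 200M against WT, 0 to 1 in young hypothalamus 200M against WT, 2 to 7 in older pituitary 200M and 0 to 6 in 200H against WT, 0 to 1 in older pituitary 200M against 200H, 1 to 6 in older ovary 200M against WT and 1 to 5 against 200H, and 0 to 1 in older hypothalamus 200M against WT. For differences between effects the ranges were 5 to 14 and 3 to 8 for pituitary minus ovary in young and older mice, 0 to 2 and 4 to 6 for pituitary minus hypothalamus, and 0 to 2 for ovary older minus young. In the remaining comparisons the count stayed at 0. For these counts, and for those under the other alternatives, the share of all genes in each fit is not given. Members under about 1 CPM, such as Wnt10a in 200M ovary, Sfrp5 in older WT ovary and Wnt3 and Wnt7a in pituitary, are limited by read number.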
